A study of Mus musculus with 6 samples.

Results

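Genes of intraflagellar transport and of the ciliary transition zone were examined in kidneys of iron-deficient mouse pups. The 35 genes were chosen by symbol and role from the 24422 genes of the count tables. Their counts were not used in the choice, but earlier results of these data were known. All 35 were present and passed the filter on low counts. They encode the proteins of the transport trains (IFT-B, 10 genes, and IFT-A, 6 genes), their motors (4 kinesin-2 genes and 2 dynein-2 genes), 11 proteins of the transition zone, and ARL3 and TULP3, which bring membrane proteins into the cilium. BBSome and polycystin genes were left out. The 6 samples were whole kidneys of wild type C57BL/6 pups at postnatal day 15. The 3 FeD pups came from dams whose chow held 2 to 6 ppm iron, and the 3 control pups from dams whose chow held 220 ppm. The diets were given before mating, through pregnancy and until the kidneys were taken. Litter and sex of each pup were not given in the sources used here, so litter and diet cannot be told apart.

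The primary cilium is a sensory antenna on the apical surface of most tubular epithelial cells, while intercalated cells of the collecting duct lack one. Kinesin-2 carries IFT-B trains with their cargo to the tip, and dynein-2 with IFT-A carries them back to the base. The transition zone at the base is a gate that decides which proteins enter. Loss of Ift88 or Kif3a in mouse tubules causes cysts, and mutations in transition zone genes cause Joubert and Meckel syndromes and nephronophthisis.

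RFX transcription factors bind the X-box of many ciliary promoters. Of the 30 genes found in the RefSeq promoter table (GRCm38.p6, 250 bases before to 50 bases after the start), 6 held the RFX X-box consensus on either strand, a share of 20% against 1.75% of the 27025 genes in the table. Its half-site GTTGCC, searched on both strands and contained in many X-boxes, was found in 15 of the 30 (50%) and in 14.1% of all genes. Both were less frequent in the other genes of the machinery described below, of which 40 were in the table. Of these 40, 2 (5%) held the X-box and 13 (32.5%) the half-site. Among the 6 of the 30 genes with the X-box, B9d2 and Tctn2 fell, and Kif17, Tctn1, Tctn3 and Ift57 did not pass the test. The windows of 30 bases below leave out Kif17 and Ift57 and add B9d1 and Tmem231, which fell and hold the half-site alone. Of the genes shown, 4 fell and the other 2 did not pass, and they were chosen with these outcomes known. Genes with the half-site alone that did not pass, such as Ift88, Ift140 and Kif3a, are not shown. The windows therefore cannot show whether motif and fall go together. They run 5′ to 3′ on the gene's strand, and capitals mark the X-box or, for B9d1 and Tmem231 (1 of its 2 matches), the half-site.
B9d2 (fell, chr7:26465807-26465836, plus strand): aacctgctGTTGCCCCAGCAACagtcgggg
Tctn2 (fell, chr5:125048688-125048717, plus strand): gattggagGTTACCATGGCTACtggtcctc
B9d1 (fell, chr11:61318654-61318683, plus strand): cgagagcctcctGGCAACagcgcgcggcct
Tmem231 (fell, chr8:114457685-114457714, minus strand): tgcccgccgtcgGTTGCCgtggagactcgg
Tctn1 (did not pass, chr5:122714420-122714449, minus strand): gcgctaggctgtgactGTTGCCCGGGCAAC
Tctn3 (did not pass, chr19:40686841-40686870, minus strand): ctcccagcgGTTGCCAGGTAACgggaacca
Positions are those of NCBIM37 (mm9), from an exact match of the RefSeq sequence to that genome. Ift80, Ift81, Ift122, Dync2li1 and Tmem67 were not in the promoter table. Ift80, Ift122 and Dync2li1, which fell, are therefore missing from the counts that follow. The X-box was present in 2 of 7 genes that fell, in 0 of 1 that rose and in 4 of 22 that did not pass. The half-site was present in 5 of 7 genes that fell, in 0 of 1 that rose and in 10 of 22 that did not pass. A match is a run of letters and was not tested for binding.

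Libraries held 13732173 to 20853293 counts, of which the 35 genes took 0.0935% to 0.108%. A floor of 3 counts stood at a CPM of 0.144 to 0.218, counts scaled to library size, and covers counting error only. Kidney markers were high in every library, with 54130 to 145700 normalized counts summed over 7 proximal tubule markers and 82770 to 137300 over 4 markers of the thick ascending limb. Pairs of libraries of a group differed by 3.23 to 30.3 chi-square per degree of freedom, so none was a copy. In 2 libraries, RNA of another kind of cell was higher than in the rest. FeD kidney 2 had 7024 normalized counts over 3 adrenal markers, against 129.1 to 288.7 in the other libraries. Control kidney 1 had 713 normalized counts over 12 markers of multiciliated cells, which carry motile cilia, against 264.5 to 302.1. In it Foxj1, the master regulator of motile cilia, had 105.5 normalized counts, and 13 to 19.6 in the other 5. Mcidas was at 0 counts in those 5.

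In FeD kidneys, the genes of ciliary transport did not move as a block. In edgeR's quasi-likelihood fit, with P values adjusted over 15145 tested genes (Benjamini-Hochberg), 10 of the 35 were lower, 1 was higher and 24 did not pass an adjusted P of 0.05. Of all tested genes, 23.3% were lower and 22.4% were higher by the same rule, so the number of lower genes was near the background and the number of higher genes was below it. The median log2 fold change (log2 FC) of FeD over control was -0.05 over the 35 genes and 0 over all tested genes. No gene of the 35 changed at least 2-fold at an adjusted P under 0.05 by edgeR, where 4.34% of all tested genes were that much higher and 5.69% that much lower, and DESeq2 also gave 0. A log2 FC of at least 0.5 was reached by 5 of the 35 genes that passed, against 25.4% of all tested genes. Without adjustment, 14 of the 35 had a P under 0.05, against 8121 of the 15145 tested genes. FeD and control kidneys did not overlap in 13 genes, 11 below and 2 above, against 29.7% below, 28.4% above and 58.1% either way for all tested genes. The number of higher genes was 0 without control kidney 3 and 3 without FeD kidney 3. Over all tested genes, 2453 and 3937 were higher in these settings, against 3397 in the main fit. In whole kidneys, fewer cells of a type and less RNA per cell cannot be told apart.

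**Figure D1:**
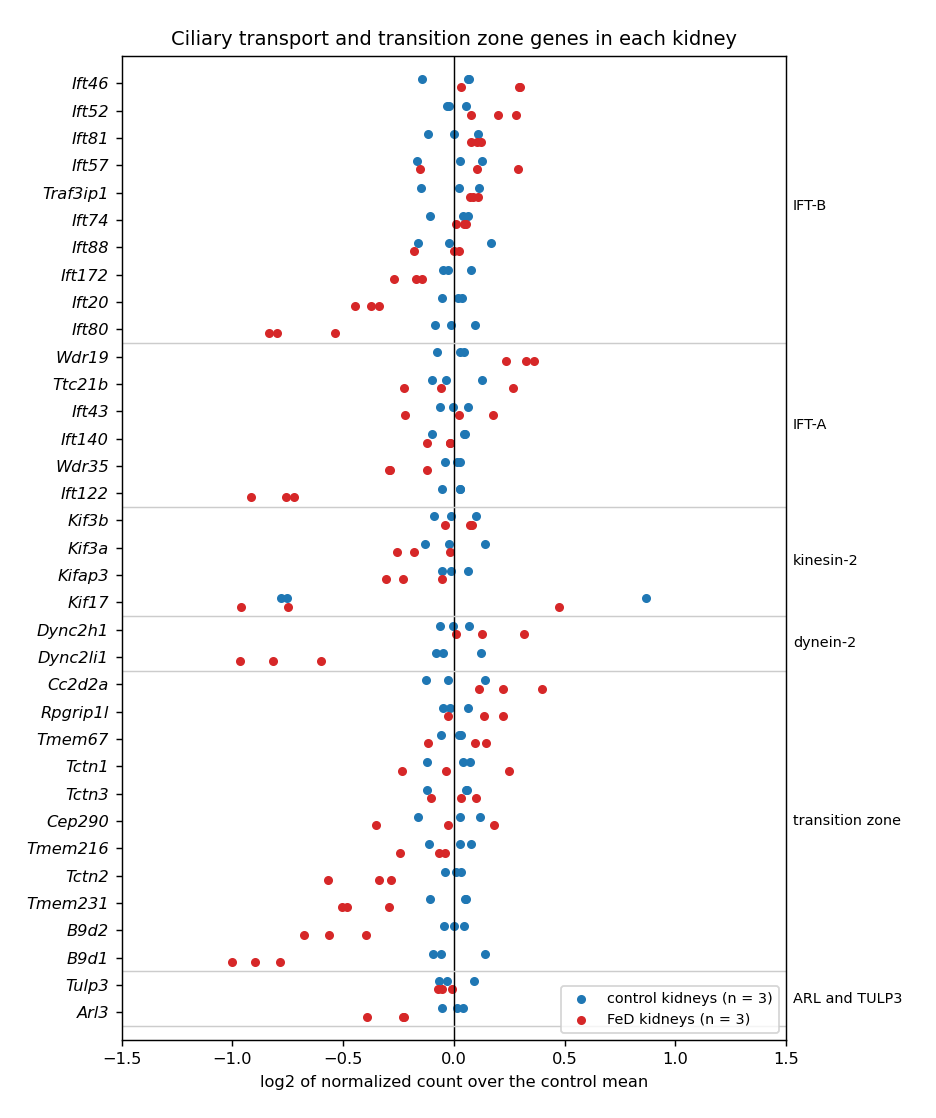
Normalized counts of the 35 genes in each kidney, as the log2 of the value over the mean of the 3 control kidneys (horizontal axis), with genes grouped by role. Blue points are the 3 control kidneys and red points the 3 FeD kidneys; in B9d1, Ift122, Dync2li1 and Ift80 all red points lie left of all blue points, in Wdr19 all lie right, and for Kif17 control kidney 1 and FeD kidney 2 stand far above the rest.

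Levels per exon length were compared as RPKM, the normalized counts per kilobase of annotated exons, scaled for library size, which understates genes with long exons that the kidney does not use. In control kidneys, Arl3 had the highest level with 55.1 ± 1.89 RPKM (SD, n = 3), followed by Dync2li1 with 32.7 ± 2.55 and Ift20 with 26.5 ± 0.829, and these levels did not overlap. The lowest was Kif17 with 0.205 ± 0.147 RPKM. Next above it came Rpgrip1l with 1.16 ± 0.0461, Tmem67 with 1.31 ± 0.0455 and Cep290 with 1.52 ± 0.149 RPKM.

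**Figure D2:**
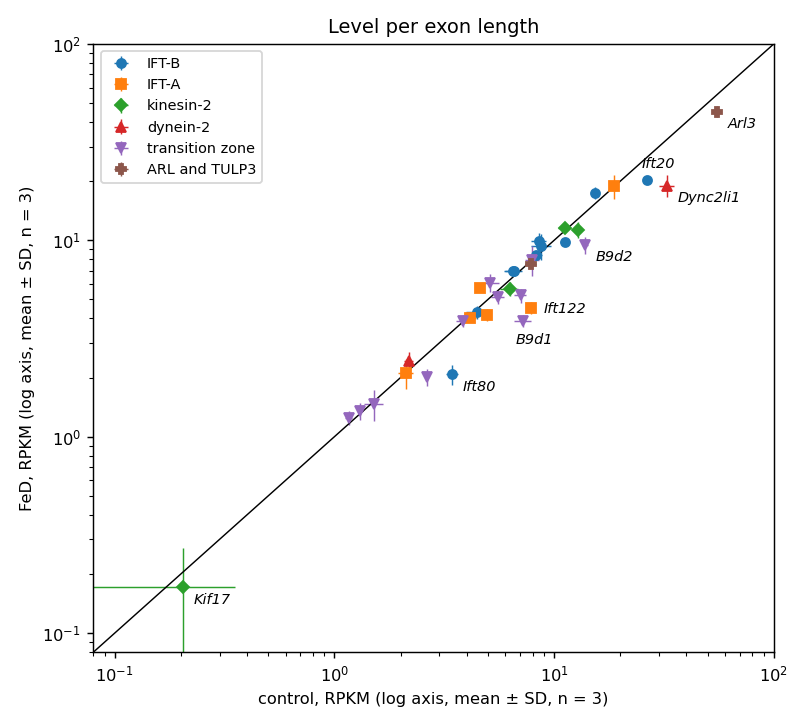
Level per exon length of the 35 genes in control kidneys (horizontal) and FeD kidneys (vertical), both in RPKM on log axes, with mean ± SD of 3 kidneys and the line of equal level. Most genes lie near the line; Dync2li1, Ift122, B9d1 and Ift80 lie below it, and Kif17 is lowest at 0.205 RPKM in control kidneys.

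Among the 10 IFT-B genes, 2 fell and 8 did not pass, where 23.3% of all tested genes were lower. Ift80 (chromosome 3, 68696421 to 68808492, minus strand) encodes a peripheral subunit of the train that is mutated in skeletal ciliopathies. It had 665, 587 and 616 normalized counts in control kidneys 1 to 3 and 358, 349 and 428 in FeD kidneys 1 to 3. All FeD kidneys lay below all control kidneys, a log2 FC of -0.71 (standard error 0.10, adjusted P = 0.00097, edgeR). Ift20, whose product also works at the Golgi where cargo is loaded, fell by 0.39 on the log2 scale (adjusted P = 0.0041, edgeR). Ift88, the gene of the classic polycystic orpk mouse, had 414, 363 and 330.2 normalized counts in control and 375, 369 and 326 in FeD kidneys. These values overlapped, with a log2 FC of -0.05 (95% interval -0.31 to 0.20, adjusted P = 0.73, edgeR). The core subunits Ift46, Ift52, Ift74 and Ift81 had log2 FCs of 0.21, 0.19, 0.03 and 0.10 and did not pass. For Ift52 the FeD kidneys lay above all control kidneys and the adjusted P was 0.088 (edgeR). It was 0.018 without FeD kidney 3, where Ift46 also reached 0.018. Ift172 had a log2 FC of -0.19 with an adjusted P of 0.056 (edgeR), and Ift57 and Traf3ip1 stood at 0.09 each.

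Of the 6 IFT-A genes, 2 fell, 1 rose and 3 did not pass, where 23.3% of all tested genes were lower and 22.4% higher. Ift122 (chromosome 6, 115803488 to 115876717, plus strand), a subunit of the IFT-A core, had 1139, 1140 and 1078 normalized counts in control and 679, 592 and 662 in FeD kidneys. No FeD kidney came near a control kidney, and the log2 FC of -0.79 (standard error 0.08, adjusted P = 0.00018, edgeR) had the smallest adjusted P of the 35 genes. Wdr19, which encodes the core subunit IFT144, rose instead. It had 370.2, 374 and 344.5 normalized counts in control and 455, 466 and 427.5 in FeD kidneys, a log2 FC of 0.31 (adjusted P = 0.016, edgeR). This rise had an adjusted P of 0.066 without control kidney 3. Wdr35, the IFT121 subunit, fell by 0.23 (adjusted P = 0.046, edgeR). Its adjusted P lay between 0.086 and 0.14 when control kidney 1, 2 or 3 or FeD kidney 2 or 3 was left out. The remaining IFT-A genes Ift140, Ttc21b and Ift43 had log2 FCs of -0.05, 0.01 and 0.00 and did not pass.

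None of the 4 kinesin-2 genes passed, where 45.7% of all tested genes did. Kif3a, whose loss in tubules gives cysts, had 726, 649.7 and 603 normalized counts in control and 552, 582 and 652 in FeD kidneys, with overlapping groups and a log2 FC of -0.15 (95% interval -0.38 to 0.09, adjusted P = 0.27, edgeR). Its partner Kif3b and the adaptor Kifap3 stood at 0.04 and -0.19. Kifap3 had an adjusted P of 0.098, and of 0.033 without FeD kidney 2 (edgeR). Kif17, the homodimeric kinesin-2 best known from sensory neurons, had 30.7, 9.96 and 9.79 normalized counts in control and 10, 23.4 and 8.64 in FeD kidneys. Its high libraries were control kidney 1 and FeD kidney 2, those with the high multiciliated and adrenal markers, and the part of these cells in its values was not tested. Its log2 FC of -0.32 became 0.44 without control kidney 1, and neither value passed.

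Of dynein-2, the light intermediate chain fell while the heavy chain did not pass. Dync2li1 (chromosome 17, 85025836 to 85054898, plus strand) had 747, 842 and 731 normalized counts in control and 439, 510.5 and 396 in FeD kidneys. The groups lay far apart, with a log2 FC of -0.79 (standard error 0.11, adjusted P = 0.00089, edgeR). Dync2h1 had 659.9, 602 and 627.5 normalized counts in control and 634, 688.5 and 783 in FeD kidneys, a log2 FC of 0.16 (adjusted P = 0.22, edgeR). The ratio of Dync2li1 to Dync2h1 in the same kidney was 1.13, 1.40 and 1.16 in control and 0.692, 0.742 and 0.506 in FeD kidneys. Dync2li1 has 1324 exon bases and Dync2h1 has 16161. With a correction for exon length, the log2 FC was -0.64 for Dync2li1 and 0.03 for Dync2h1. Within IFT-A, the ratio of Ift122 to Wdr19 was 3.08, 3.05 and 3.13 in control and 1.49, 1.27 and 1.55 in FeD kidneys. For both ratios the groups did not overlap. They are 2 of 4 ratios computed, chosen after their values were seen, and each had P = 0.10 by a two-sided exact permutation test (adjusted P = 0.10 over the 4), the smallest that 3 kidneys against 3 allow.

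**Figure D3:**
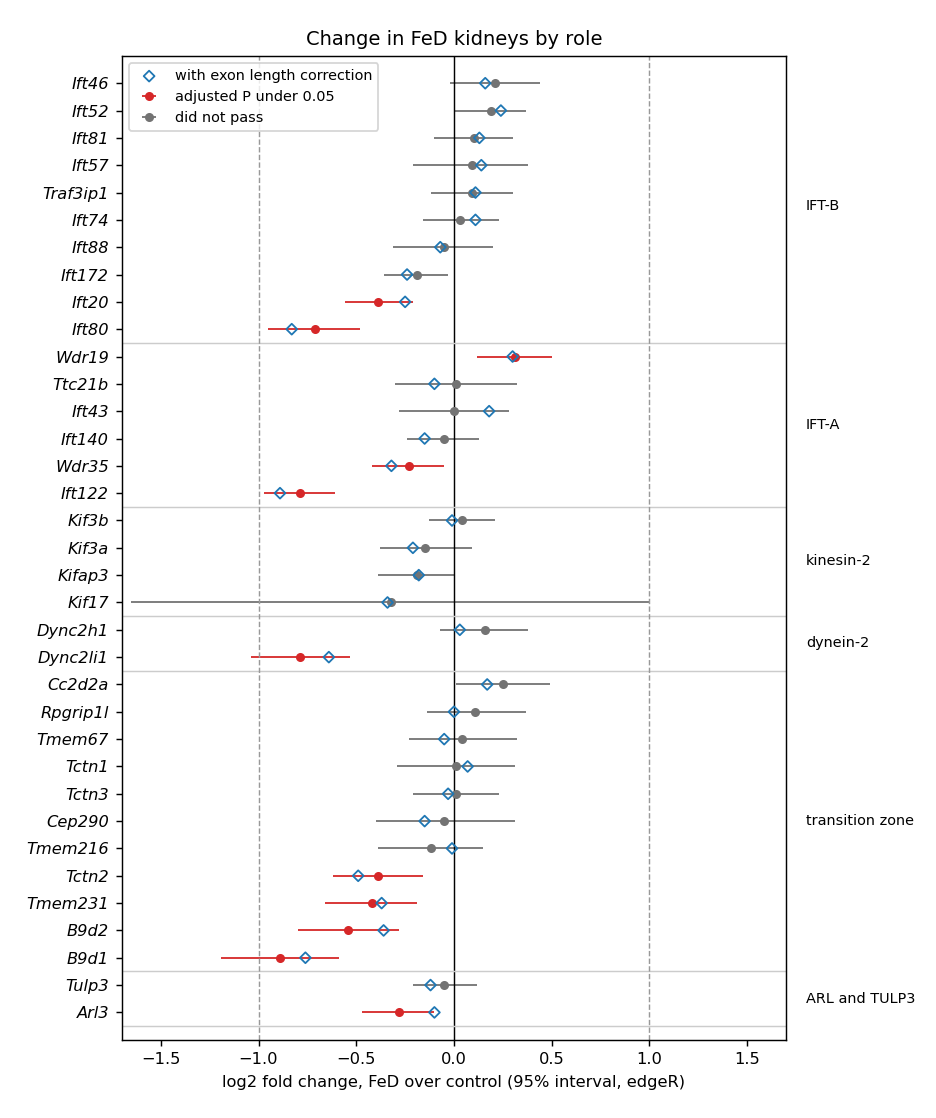
Log2 FC of FeD over control for the 35 genes by role, with 95% intervals from edgeR; red marks an adjusted P under 0.05, gray genes did not pass, blue diamonds give the value with a correction for exon length, and dashed lines mark a 2-fold change. The 10 genes that fell are spread over every role but kinesin-2, Wdr19 rose, and B9d1 has the lowest value at -0.89.

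Of the 11 transition zone genes, 4 fell and 7 did not pass, where 23.3% of all tested genes were lower. B9d1 (chromosome 11, 61318646 to 61326433, plus strand), one of the B9-domain proteins of the gate, had the lowest log2 FC of the 35 genes. It had 226, 197 and 192 normalized counts in control and 110.0, 103 and 119 in FeD kidneys, all of these below every control value, a log2 FC of -0.89 (standard error 0.13, adjusted P = 0.0011, edgeR). B9d2, its binding partner, had 251, 243.5 and 259.9 normalized counts in control and 191, 157 and 170.1 in FeD kidneys (log2 FC -0.54, standard error 0.11, adjusted P = 0.0057, edgeR). Mks1, the other B9-domain gene and not among the 35, moved the other way with 239, 225 and 246 in control and 331, 297.5 and 275.5 normalized counts in FeD kidneys (log2 FC 0.35, adjusted P = 0.028, edgeR). The ratio of B9d1 to Mks1 was 0.948, 0.877 and 0.783 in control and 0.332, 0.345 and 0.433 in FeD kidneys, without overlap (two-sided exact permutation P = 0.10).

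Tmem231, a membrane protein of the same complex, fell by 0.42 on the log2 scale (adjusted P = 0.010, edgeR). Of the tectonic genes, whose products line the gate, Tctn2 fell by 0.39 (adjusted P = 0.013, edgeR), while Tctn1 and Tctn3 stood at 0.01 each with 95% intervals of -0.29 to 0.31 and -0.21 to 0.23. The ratio of Tctn2 to Tctn3 was 1.09, 1.18 and 1.08 in control and 0.855, 0.734 and 0.947 in FeD kidneys (two-sided exact permutation P = 0.10). It was the last of the 4 ratios, all chosen after their values were seen. Exons of Hvcn1 on the opposite strand cover 20.4% of those of Tctn1, so its counts can hold reads of that gene. Cc2d2a had the highest value of the 11 genes, a log2 FC of 0.25 that did not pass (adjusted P = 0.088, edgeR). The long scaffold genes Cep290 and Rpgrip1l stood at -0.05 and 0.11, and the membrane proteins Tmem67 and Tmem216 at 0.04 and -0.12. For Cep290, 9.69% of exon bases overlap a gene on the opposite strand.

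ARL3 is a small GTPase that releases lipidated cargo inside the cilium. Arl3 fell by 0.28 (adjusted P = 0.021, edgeR), from 779, 816 and 833 normalized counts in control to 689, 691 and 617 in FeD kidneys. Without control kidney 2 or 3 its adjusted P was 0.070 and 0.077, and with a correction for exon length its log2 FC was -0.10 (adjusted P = 0.27, edgeR). Tulp3, which ferries G protein-coupled receptors into cilia, stood at -0.05 and did not pass.

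Over all tested genes, log2 FC rose with exon length. Among all tested genes with an annotated length, the median log2 FC was -0.16 in the shortest of 10 classes of exon length and 0.14 in the longest, and 31.9% and 15.2% of the genes in them were lower. Of the 35 genes, 12 have under 3000 exon bases and 6 of them fell; 4 of the other 23 fell. Among all tested genes with a length, 1672 of 5714 under 3000 bases were lower, of 3452 lower genes among 14631. The median exon length was 2240 bases for the 10 genes that fell and 5049 for the other 25, against 3085 for the lower and 3787 for the remaining genes of all tested. Across the 35 genes, which share libraries, Spearman's rho between exon length and log2 FC was 0.20, and 0.16 across 14631 tested genes. With each library's trend on exon length taken out, B9d1 stood at -0.76, Dync2li1 at -0.64 and B9d2 at -0.36, and these still passed. The long genes Ift122, Ift80 and Tctn2 stood at -0.89, -0.83 and -0.49. Of the 11 genes that passed without the correction, Arl3 alone did not pass with it, and Ift52 and Ift172, which had not passed, did so with it (adjusted P = 0.031 and 0.025, edgeR). What makes length move with diet in these libraries was not tested.

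**Figure D4:**
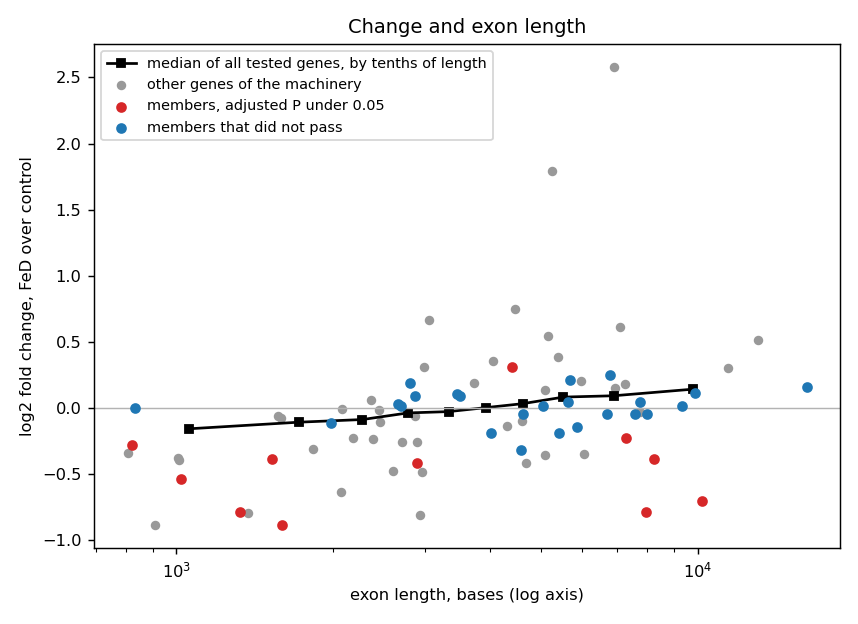
Log2 FC of FeD over control against annotated exon length in bases (log axis) for the 35 genes (red where the adjusted P was under 0.05, otherwise blue) and the other genes of the machinery (gray), with black squares for the median of all tested genes in 10 classes of length. The squares rise from -0.16 to 0.14; B9d1, Dync2li1 and B9d2 lie below them among short genes and Ift122, Ift80 and Tctn2 among long genes.

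The rest of the machinery was taken from a list of 44 genes chosen by function, of which 43 were tested. By edgeR, 13 were lower and 7 higher, where 23.3% and 22.4% of all tested genes were. Exon length moved with change more closely here, with a Spearman rho of 0.60 across the 43 genes and a median of 2071 bases for the 13 lower genes against 4377 for the other 30; 11 of the 13 have under 3000 bases. With the length correction, 9 were lower. Without control kidney 1, 2 or 3 the lower genes numbered 8, 7 and 7, and without FeD kidney 3 the higher genes numbered 13. The counts over all tested genes moved the same way. There, 2757, 2618 and 2623 were lower in place of 3527, and 3937 were higher in place of 3397. The remaining IFT genes leaned down, with 5 of 7 tested genes lower, none higher and a median log2 FC of -0.42. With the length correction Ift27, named here after its values were seen, went from -0.40 to -0.22 and did not pass (adjusted P = 0.12, edgeR), while the other 4 still did. Ift22, a small GTPase of IFT-B, fell from a mean of 395.5 ± 18.8 to 213 ± 13.7 (SD, n = 3 kidneys; normalized counts), a log2 FC of -0.89 (adjusted P = 0.00026, edgeR). Hspb11, the IFT25 subunit, fell by 0.64 (adjusted P = 0.019). This call was lost without any one of the 3 control kidneys or FeD kidney 1, with adjusted P values of 0.053 to 0.072. The summed counts of these 8 genes were 1762 to 1812 in control and 1216 to 1398 in FeD kidneys.

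Of 7 further motor subunits, 3 fell and none rose, where 23.3% of all tested genes were lower and 22.4% higher. Dynlrb1 and Dynlt1b, named after their values were seen, had log2 FCs of -0.38 and -0.34 (adjusted P = 0.0057 and 0.046, edgeR). With the length correction Dynlt1b did not pass (adjusted P = 0.32, edgeR). Kif3c, Wdr34, Wdr60 and Tctex1d2 did not pass. Dynll1, a light chain that cytoplasmic dynein also uses, fell from a mean of 2079 ± 66.2 to one of 1184 ± 134 (normalized counts; log2 FC -0.81, adjusted P = 0.00024, edgeR). In the transition zone list of 12 genes, Tmem107 fell by 0.80 on the log2 scale (adjusted P = 0.0019, edgeR) and 3 rose. The rising genes were Mks1, 2410089E03Rik (log2 FC 0.51, adjusted P = 0.0016) and Rpgrip1, a partner of the gate protein RPGR best known from photoreceptors. Rpgrip1 was scarce, with 14.4, 5.53 and 2.67 normalized counts in control and 23.0, 40.3 and 17.3 in FeD kidneys. Exons of Supt16h on the opposite strand cover 16.9% of its exon bases, so these counts can hold reads of that gene. The log2 FC of Rpgrip1 of 1.79 (adjusted P = 0.033, edgeR) made it the only gene of the list past 2-fold, and it did not pass without control kidney 2 or 3 or FeD kidney 1 or 2.

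Of 9 basal body genes 2 were higher and 3 lower, and of 8 genes of membrane cargo 2 were higher and 1 lower. Of all tested genes, 22.4% were higher and 23.3% lower, so the higher genes of both lists were near that share. The lower genes, named after their values were seen, were Rabl2, Cep89, Cep19 and Arl2, at -0.49, -0.36, -0.31 and -0.26. The higher genes all rose by at least 0.5 on the log2 scale. Ofd1 and Sclt1, of the distal end of the mother centriole, rose by 0.75 and 0.61 (adjusted P = 0.0010 and 0.0020, edgeR). Gpr161, a receptor that TULP3 and IFT-A carry into cilia, rose from a mean of 174 ± 8.17 to one of 275 ± 21.2 (normalized counts, log2 FC 0.66, adjusted P = 0.0019, edgeR). Rp2, which inactivates ARL3, rose by 0.54 (adjusted P = 0.0049, edgeR). The RFX genes did not move together. Rfx7 rose by 0.39 (adjusted P = 0.0053, edgeR), Rfx1 fell by 0.31 (adjusted P = 0.042, edgeR), Rfx2, Rfx3 and Rfx5 did not pass, and Rfx4 was too scarce to test.

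Markers of several cell types changed too. All 7 proximal tubule markers were lower, with a median log2 FC of -1.08, and all 5 markers of dividing cells were at least 2-fold lower, with summed counts of 1774 to 2066 in control and 467 to 620.2 in FeD kidneys. Of 4 markers of principal cells, which carry a cilium, 3 were higher and 1 was lower. Of 5 markers of intercalated cells, 2 were higher and 2 were lower. Of the 12 markers of multiciliated cells, 8 could be tested and none passed. The part of cell composition in the changes of the 35 genes was not tested. When control kidney 1 and FeD kidney 2 were both left out, a choice made after seeing the data, 5 of the 35 genes (B9d1, Ift122, Dync2li1, Ift80 and Ift20) were lower and 0 were higher by edgeR, and 30.7% of all tested genes passed, against 45.7% with all 6 kidneys.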

How the data were processed

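Raw read counts per gene were deposited by the authors for 6 kidneys, 3 FeD and 3 control, without normalization. The authors used poly-A RNA, TruSeq libraries and single-end reads of 100 bases, CASAVA 1.8.2, Trimmomatic, TopHat2 2.0.11 on mm9, uniquely mapped reads and HTSeq; gene annotation and strand setting were not given in the sources used here, so overlapping genes can share reads. Genes were filtered with filterByExpr, normalized by TMM and compared with edgeR 4.0.16 (R 4.3.3; glmQLFTest, Benjamini-Hochberg) without a block; the common coefficient of variation between kidneys was 0.128. The procedure was tested on simulated data. Nothing in the sources ties replicates to separate litters, so P values measure the spread between these kidneys. For display, counts were divided by effective library size (TMM) and multiplied by 17866551, the mean library. Positions, exon lengths and overlaps came from the NCBIM37 GENCODE annotation, in which 35 of 35 genes matched, Ift43 by an older symbol. Of the genes listed for these roles, 1 is not reported here. The genes and lists were chosen with earlier results of these data known. Counts per kidney are given where the adjusted P was under 0.05 with a change of 0.5 or more on the log2 scale, for Ift88 and Kif3a, and for others as chosen after their values were seen. Alternatives were other normalizations and filters, DESeq2 1.42.0, a replicate block, a length correction, both, globin genes left out, and each kidney left out. Mitochondrial genes were to be left out with the globin genes, but none was found by symbol. No tested gene was removed in that setting, which repeats the main fit (6924 of 15145 genes passed in both, edgeR).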

Additional observations from a re-analysis of the deposited data

How the results depend on the processing

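No alternative gave a 2-fold change at an adjusted P under 0.05 in any of the 35 genes (main and 16 settings; edgeR, or DESeq2 where named). Of the 16, the setting without globin genes removed no tested gene and so repeats the main fit. B9d1, Ift122, Dync2li1 and Ift80 passed in all 16, with log2 fold changes of -0.94 to -0.75, -0.90 to -0.72, -0.90 to -0.64 and -0.83 to -0.60. Of the others that passed, Wdr35, Arl3, Wdr19 and Ift20 lost their calls in at least 1 planned setting, and B9d2, Tmem231 and Tctn2 lost theirs without both control kidney 1 and FeD kidney 2. Having 3 kidneys a group limits what can be said of genes near the threshold. With each kidney left out in turn, 0 to 3 of the 35 genes were higher and 8 to 10 lower, their median was -0.10 to -0.01, and of the 44 other genes 5 to 13 were higher and 7 to 12 lower. Over all tested genes, 2401 to 3937 were higher and 2618 to 3817 lower in these settings. Replicate numbers did not pair the kidneys (r of same-numbered kidneys -0.16, 0 and -0.03): with the number as a replicate block, 10 of the 35 genes passed in place of 11 (Wdr35 was lost, adjusted P = 0.071, edgeR), and 6444 of all genes in place of 6924. With the replicate block and the length correction together, the median was -0.10 and 8 of the 44 were lower; with the length correction alone the median was -0.10 and 2 of the 35 were higher. Without both control kidney 1 and FeD kidney 2, a setting chosen after seeing the data, 0 of the 35 were higher and 5 lower, and 6 of the 44 were lower.

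Signs turned only in genes of the 35 that did not pass. With the length correction, alone and then with the replicate block, Ttc21b stood at -0.10 and -0.11, Kif3b at -0.01 and -0.01, Tctn3 at -0.03 and -0.03, Tmem67 at -0.05 and -0.06, and Rpgrip1l at -0.0027 and -0.0038. With the replicate block, Ift43 was -0.01 and Tctn1 -0.0042; without a filter on low counts they were -0.01 and -0.0027; and scaling by library size alone gave Ift43 -0.00016. Leaving out single kidneys gave -0.02 to 0.07 for Ift74, -0.13 to 0.04 for Ift88, -0.08 to 0.12 for Ift43, -0.13 to 0.13 for Ttc21b, -0.01 to 0.09 for Kif3b, -0.84 to 0.44 for Kif17, -0.12 to 0.13 for Tctn1, -0.05 to 0.08 for Tctn3, -0.17 to 0.10 for Cep290 and -0.08 to 0.0012 for Tulp3. Without both kidneys, Ift88 was 0.02, Ift43 -0.0027, Tctn1 -0.02 and Cep290 0.02. The cause of these shifts was not tested.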
